A study of Mus musculus with 12 samples.

Results

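The contractile genes of smooth muscle were followed through 12 single cultured cardiac progenitor cells (CPCs) of the mouse. The list held 10 of the 21729 genes in the table: the actins Acta2 and Actg2, the actin-binding genes Tagln, Cnn1, Cald1, Tpm1 and Tpm2, the myosin genes Myl9 and Myh11, and the regulator Myocd. They were listed for their known roles, with earlier results of these data known, and the cell CPC11 was chosen by its Acta2 value, the highest of the 12. Values of CPC11 against the other 11 cells are therefore a description and were not tested. In CPC11 Acta2 reached 3668 CPM (counts of a gene in every 1000000 counts of its cell), 31.4 times the next cell, together with Tagln at 11.2 CPM and Tpm2 at 566 CPM, whereas Cnn1, Actg2, Myh11 and Myocd had no count in that cell.

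All 12 cells belonged to a single group. The non-myocyte fraction of hearts from female FVB mice, 12 weeks old, was depleted of lineage-marked blood cells, c-Kit+ cells were taken by magnetic sort, and hearts were pooled. The culture had been carried for 5 passages on gelatin-coated dishes in medium with 10% serum, LIF and bFGF at 10 ng/ml each, and EGF at 20 ng/ml, and single cells were then picked by mouth pipette for full-length cDNA libraries. No treated, mutant or fresh cells were analysed here, and no transgene was named in the labels. Since the labels name no separate animal or culture, the cells were not replicates of a condition. Of the marker used in the sort, Kit, 21 counts were found in CPC10 and none in the other cells.

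Smooth muscle contracts when myosin filaments pull on actin filaments that tropomyosin, caldesmon, calponin and transgelin coat or bundle. Calcium acting through calmodulin turns on myosin light chain kinase, which phosphorylates the regulatory light chain. Many of these genes carry a CArG box, the binding element of serum response factor (SRF), which works with myocardin in smooth muscle and with the myocardin-related factors MRTF-A and MRTF-B (listed as Mkl1 and Mkl2) in many other cells. Acta2 and Tagln are also induced in fibroblasts that spread on stiff culture surfaces or meet TGF-beta, so that Acta2 by itself does not name a cell type.

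The letters before the RefSeq start of 2 members are shown because Acta2 set CPC11 apart and Myl9 held the only exact element among the members. RefSeq sequence (GRCm38.p6) of the 250 bases before a gene's start was given for 6 of the 10 members (Acta2, Cnn1, Myl9, Tpm1, Tpm2 and Cald1) and searched for the CArG box, which is palindromic and so was read on both strands at once. An exact box, with only A or T between its CC and GG ends, was present in the window of Myl9 alone, against 1.62% of the 27025 genes with a window. When 1 other letter was allowed, Acta2 and Myl9 held 2 boxes each, against 9.78% of all genes with at least 1. Capitals mark the box in the stretches of 30 bases below, which are read 5′ to 3′ on the strand of the gene. The Acta2 stretches, on the minus strand, lie at chr19:34255438-34255467 (box at positions -84 to -75 from the RefSeq start) and chr19:34255388-34255417 (box at -34 to -25). The Myl9 stretches, on the plus strand, lie at chr2:156775293-156775322 (box at -161 to -152, the exact one) and chr2:156775355-156775384 (box at -99 to -90). In GENCODE vM21, 217 of the 250 window bases of Acta2 are exon, against 193 for Tpm1, 106 for Tpm2 and at most 44 for the others, and both Acta2 stretches lie inside the gene as GENCODE places it.
Acta2 distal box: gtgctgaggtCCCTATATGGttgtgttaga
Acta2 proximal box: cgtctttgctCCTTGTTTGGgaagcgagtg
Myl9 distal box: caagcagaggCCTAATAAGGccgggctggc
Myl9 proximal box: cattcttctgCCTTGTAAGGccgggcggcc
Among relatives of the members in the same gene families, 16 genes had a window, and 5 of them (Acta1, Actc1, Actg1, Cnn2 and Myl6) held an exact box. Of those 5, Actc1 had no count in any cell and Acta1 at most 1.74 CPM, while Actg1, Cnn2 and Myl6 were counted in every cell. A match is a description of letters, and binding was not measured.

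The 12 libraries held from 3453708 to 5690184 counts, and all 12 passed the filter of the study on genes and mitochondrial counts. For a gene without a count a limit of 3 counts was used, 0.527 to 0.869 CPM across cells and 0.541 CPM in CPC11, while the two-sided interval reaches 3.69 counts, or 0.666 CPM in CPC11. The libraries carry no molecular identifiers, so these limits and the 95% intervals below (exact Poisson for counts, exact binomial for shares) cover counting error only. CPC11, CPC7, CPC8, CPC10 and CPC12 had 10022 to 10181 genes detected, and the other 7 cells had 11216 to 11950, a difference for which the labels give no batch. CPC10 stood apart by endothelial markers, which summed to 9810.3 CPM there and to 3.97 CPM in CPC11, and CPC3 by Cd53 at 1463 CPM.

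Of the 10 genes, 8 had a count in at least 1 cell, and 57 of the 120 values of gene and cell were above 0. Acta2, Tagln, Tpm1, Tpm2 and Cald1 passed the filter, which asked for a mean over the 12 cells of 1 CPM or more. Tagln passed only through CPC11, with a mean of 1.01 CPM, and Myl9 was just outside at 0.808 CPM. Tpm1, Tpm2 and Cald1 were counted in every cell, Acta2 in 10 cells, and Tagln, Cnn1, Myl9 and Myh11 in 4 cells or fewer. Per kilobase of exon, the levels in CPC11 were 1670.4 CPM for Acta2, 195 for Tpm2, 152 for Cald1, 132 for Tpm1, 5.63 for Tagln and 4.19 for Myl9. The length joined the exons of all annotated transcripts of a gene: 2196 bases for Acta2, 2909 for Tpm2, 6485 for Tpm1 and 12041 for Cald1. It can exceed that of a single transcript, so levels of different genes are only roughly comparable. On this scale Acta2 stood above the other members in CPC11. In the other cells its median was 3.26 CPM per kilobase, below Cald1 at 98.6, Tpm1 at 63.1 and Tpm2 at 28.3.

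**Figure D1:**
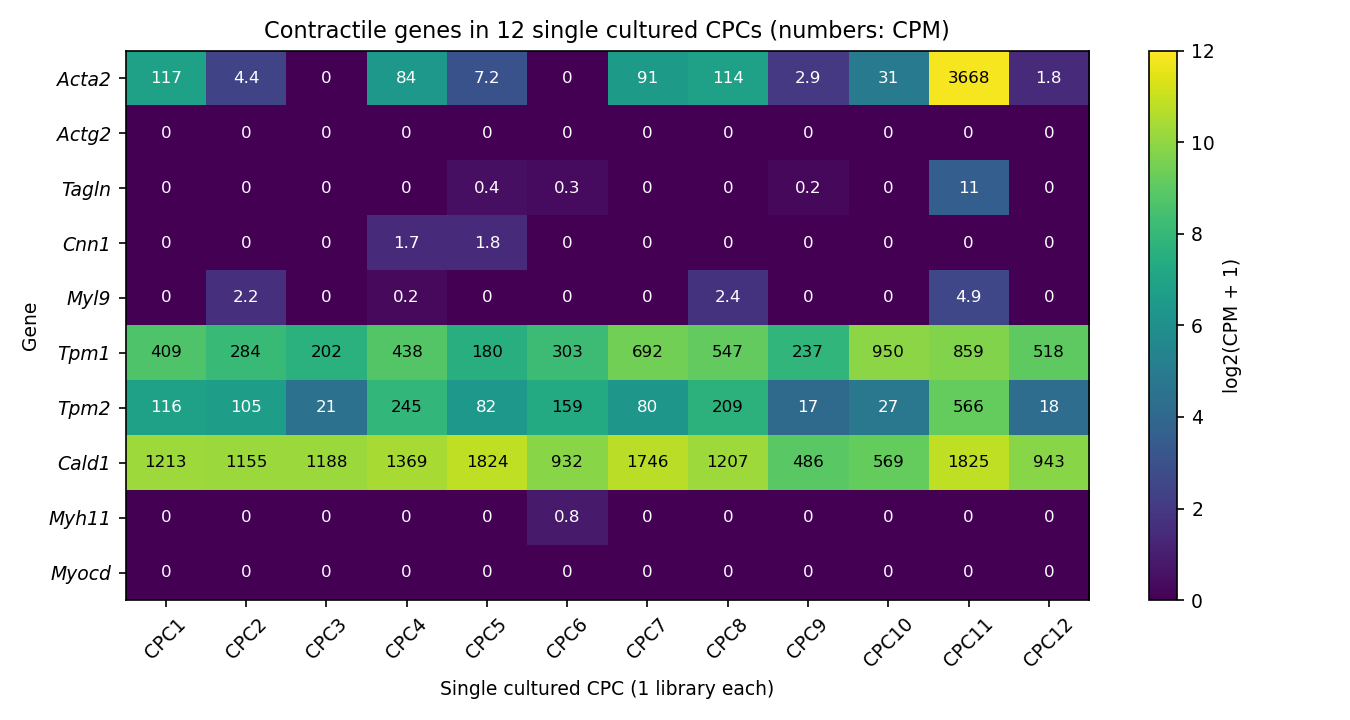
The colour gives log2(CPM + 1) of each contractile gene (rows) in each single cultured CPC (columns), and the printed number is its CPM. Acta2 stands at 3668 CPM in CPC11 and at 0 to 117 CPM in the other cells, and the rows of Actg2 and Myocd are at 0 throughout.

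Acta2, the smooth muscle alpha-actin gene (ENSMUSG00000035783, chr19:34241090-34255590, minus strand, mm10), had the widest range of CPM among the members. There were 20329 counts in CPC11, or 3668 CPM with a 95% interval of 3618 to 3719. The next cells were CPC1 at 117 CPM (106 to 129), CPC8 at 114 CPM (105 to 123), CPC7 at 90.7 CPM and CPC4 at 84.1 CPM. CPC1 and CPC8 had overlapping intervals, so their order was not resolved. CPC10 held 31.2 CPM, CPC5 7.16 CPM, CPC2 4.44 CPM, CPC9 2.93 CPM and CPC12 1.76 CPM, and no count was found in CPC3 and CPC6. The 11 cells other than CPC11 thus split into 5 with 31.2 to 117 CPM and 6 with 0 to 7.16 CPM, with no cell between.

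The ratio of CPC11 to CPC1 was 31.4 (95% interval 28.4 to 34.7), and CPC11 was 512 times the median of the other 11 cells. That median rests between the high and the low cells, so the second ratio was unstable: it was 191 to 206 when any of CPC2, CPC3, CPC5, CPC6, CPC9 or CPC12 was left out, 632 when any of the other 5 was, and 60.2 against the median of the other 4 cells with few genes detected. Of all Acta2 counts in the 12 cells, 90.6% came from CPC11. By the difference from the median of the other cells on the log2(CPM + 1) scale, 8.81, Acta2 ranked 1 of the 11542 genes that passed the filter. No stretch of 75 bases in the Acta2 transcripts occurred in a transcript of another gene, so uniquely mapped reads of that length could be told apart from those of the other actins.

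**Figure D2:**
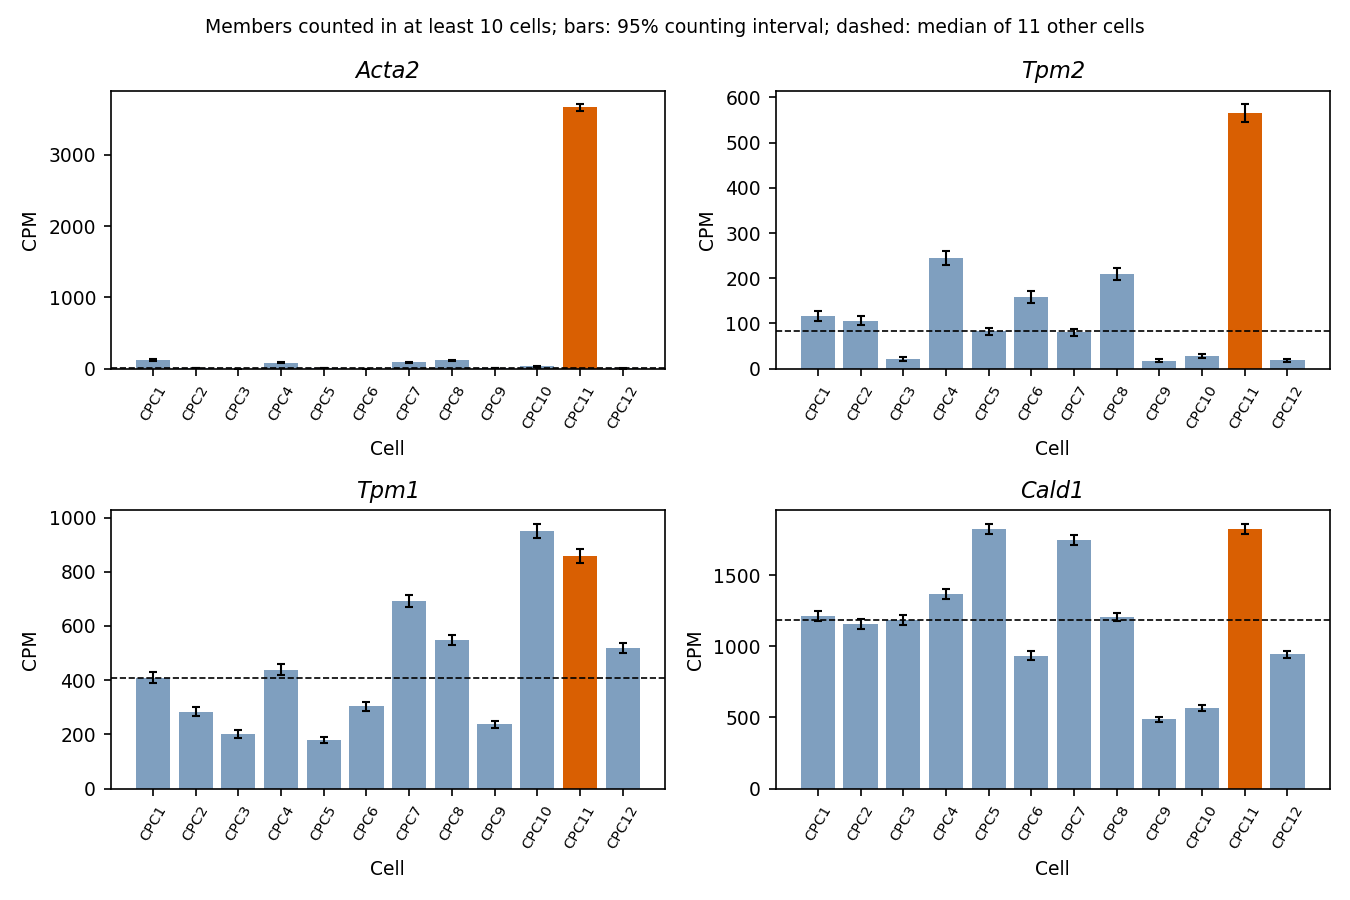
Bars give the CPM of Acta2, Tpm2, Tpm1 and Cald1 in each cell on a linear scale from 0, with the 95% counting interval, and the dashed line is the median of the 11 cells other than CPC11 (orange). Acta2 and Tpm2 are highest in CPC11 at 3668 and 566 CPM, Tpm1 is higher in CPC10 at 950.4 CPM, and Cald1 in CPC5 is level with CPC11.

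Actg2, the gamma-actin gene of enteric smooth muscle (chr6:83512905-83536265), had no count in any cell. The make-up of the actin counts was read next. Acta2 supplied 31.1% of the counts of the 6 actin genes in CPC11 (95% interval 30.7 to 31.4), and 0 to 2.45% in the other cells with a median of 0.207%. Per kilobase of exon its share in CPC11 was 35.4%. The non-muscle actins lay within the range of the other cells. Actb stood at 5982 CPM, against 1752 to 9265 in the other cells, and Actg1 at 2160.4 CPM, against 443 to 3042. Both were above their medians in the other cells, 3049 and 963 CPM, and below CPC8. Per kilobase of exon, CPC11 held Acta2 at 1670.4 CPM, between Actb at 2233 and Actg1 at 813.

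**Figure D3:**
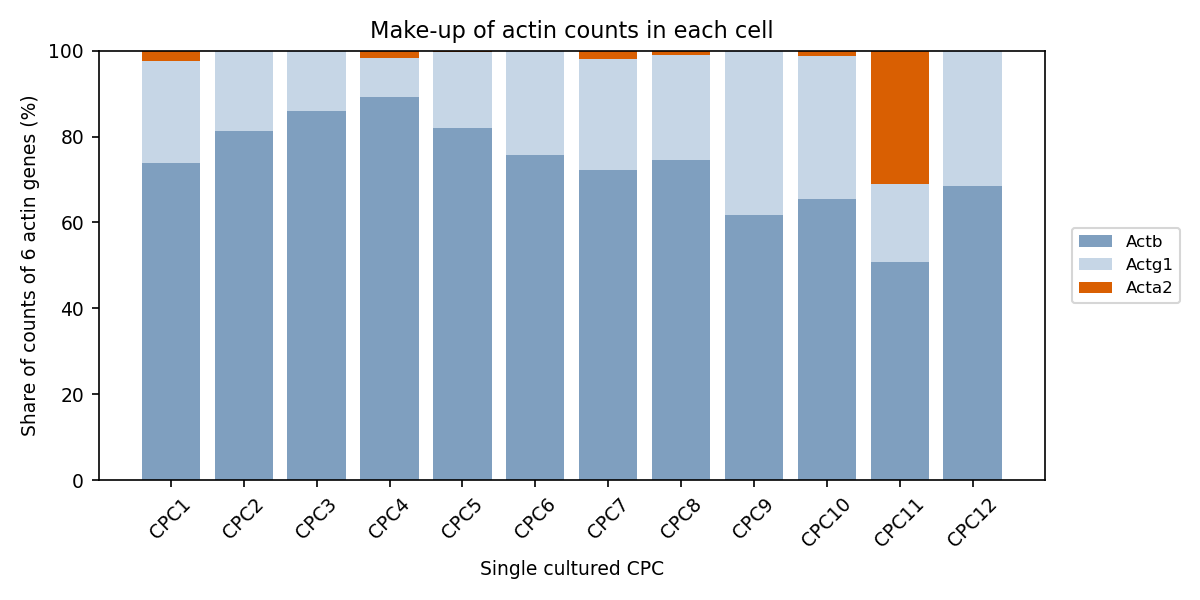
Each bar divides the counts of 6 actin genes in a cell into Actb, Actg1 and Acta2, in percent, and the other 3 actin genes are too low to be seen. Acta2 takes 31.1% of the bar of CPC11 and at most 2.45% of any other.

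Tagln, which encodes the actin-bundling protein transgelin (SM22-alpha, chr9:45929619-45936058), was low in all cells. It had 62 counts in CPC11, or 11.2 CPM (8.58 to 14.3), 2 counts in CPC5, 1 count each in CPC6 and CPC9, and none in the other 8 cells. CPC11 was 28.1 times CPC5, with an interval of 7.46 to 237 set by the 2 counts of CPC5, and held 93.9% of the counts of the gene. The counts of Tagln are uncertain: 67.9% of its exon bases are overlapped by exons on the opposite strand, 62.4% by Gm48529 and 5.4% by Pcsk7, and the strand rule of the counting is not given in the sources used here. Of the 75-base windows of its transcripts, 53.3% also occur in a transcript of those genes. Its widely expressed relative Tagln2 was at 1118 CPM in CPC11, below its median of 1257 CPM in the other cells, so that Tagln made up 0.991% of the transgelin counts of CPC11.

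Cnn1, the smooth muscle calponin (chr9:22099216-22109630), was not counted in CPC11. It had 7 counts in CPC4 and 9 counts in CPC5, a difference within counting error (ratio 1.07, 0.354 to 3.37), and none elsewhere. The limit of 3 counts in CPC11 is 0.541 CPM. The other calponins were abundant in CPC11. Cnn2 reached 1594 CPM there, against 87.5 to 1036 in the other cells, and Cnn3 reached 1076 CPM, against 281 to 1381.

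The tropomyosins lie along actin filaments and control access of myosin. Tpm2 (chr4:43514711-43523765) was highest in CPC11 at 566 CPM (546 to 586), followed by CPC4 at 245, CPC8 at 209, CPC6 at 159, CPC1 at 116 and CPC2 at 105 CPM. CPC5 and CPC7 were at 82.2 and 79.9 CPM, and CPC10, CPC3, CPC12 and CPC9 at 26.8, 21.1, 18.5 and 17.0 CPM. CPC11 was 2.31 times CPC4 (2.15 to 2.48) and 6.89 times the median of the other cells. Against the median of the other 4 cells with few genes detected, 53.4 CPM, the ratio was 10.6. The 4 lowest cells lay near each other, with overlapping intervals for CPC3 and CPC9.

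Tpm1 (chr9:67022590-67049406) was highest in CPC10 at 950.4 CPM and second in CPC11 at 859 CPM, a ratio of 1.11 (1.06 to 1.15). The other 10 cells ran from 180.1 CPM in CPC5 to 692 CPM in CPC7. Tpm1 differed between the cells with fewer and with more genes detected. The 5 cells with 10022 to 10181 genes held 518 CPM or more. The 7 cells with more genes held 180.1 to 438 CPM, without overlap. Within each set, Tpm1 did not fall as more genes were detected. The part of gene detection in these levels was not tested. CPC11 was 2.10 times the median of all other cells and 1.39 times that of the other 4 cells with few genes, so it was not 2-fold above them. Of the counts of the 4 tropomyosin genes in CPC11, Tpm1 made up 15.7% and Tpm2 10.4%, and the non-muscle gene Tpm4, at 3483 CPM, most of the rest.

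Cald1, the caldesmon gene (chr6:34598500-34775473), was counted at 486 CPM or more in every cell. Its coefficient of variation of 0.367 was the smallest among the members counted in all cells. CPC11 at 1825 CPM and CPC5 at 1824 CPM were level (ratio 1.00, 0.973 to 1.03), CPC7 was at 1746 CPM, the median of the 11 other cells was 1188 CPM, and CPC9 was lowest at 486 CPM. Which of the 2 cells came first depended on the scaling, since CPC5 was higher once mitochondrial genes were left out of the total. For Tpm1, Tpm2 and Cald1, muscle and non-muscle transcripts of the same gene could not be separated in counts per gene.

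The myosin genes among the members were near the limit of detection. Myl9, the regulatory light chain on which the kinase acts (chr2:156775420-156781658), had 27 counts in CPC11 (4.87 CPM, 3.21 to 7.09), 13 in CPC8, 9 in CPC2, 1 in CPC4 and none in the other 8 cells. CPC11 was 2.06 times CPC8, with an interval of 1.03 to 4.35, so the order of these 2 cells was barely resolved. Myh11, the myosin heavy chain specific to smooth muscle (chr16:14194535-14291372), had 3 counts in CPC6 and none in the other cells. Other myosin genes were present in CPC11. The light chain Myl12a, at 2423 CPM, and the essential light chain Myl6, at 2236 CPM, were each above all other cells. The second light chain gene Myl12b, at 335 CPM, was level with its median of 339 in the other cells. The non-muscle heavy chains Myh9, at 157 CPM, and Myh10, at 34.8 CPM, lay within the range of the other cells. Of the exon bases of Myl12a, 13.8% overlap Myl12b on the same strand, so the counts of this pair are uncertain. Myl9 was 0.176% of the regulatory light chain counts of CPC11.

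Myocd (chr11:65176561-65269989), the coactivator of SRF that marks the smooth muscle and cardiac lineages, had no count in any cell. Myh11 and Cnn1 were also at 0 in CPC11, as they were in most other cells, while Acta2, Tagln and Myl9 had counts there. CPC11 is called here by the rule that chose it, the highest Acta2, and not by a cell type. The contractile genes that were not detected are listed at 0 with a limit of 0.541 CPM in CPC11, which does not exclude lower levels.

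Set against all genes, 4 of the 5 members that passed the filter (Acta2, Tagln, Tpm2 and Cald1) were highest in CPC11, a cell chosen by its Acta2 value, while 7.46% of the 11542 genes tested were highest there. Between 5.56% and 12.8% of the genes were highest in each of the 12 cells, and the share of CPC11 lay inside that range. Tpm1 was the exception. Cald1 was level with CPC5 and highest there when mitochondrial genes were left out of the total, which gave 3 of 5. With size factors and with thinned counts Tagln fell under the filter, which gave 3 of 4. Tagln passed the filter only through CPC11 and so had to be among the 4, and the count is no evidence about the list. In CPC11, 4 members (Acta2, Tagln, Tpm1 and Tpm2) were at least 2-fold above the other cells' median, against 14.0% of all genes. Acta2 and Tagln were again fixed by the choice, Tpm1 was not 2-fold above the other cells with few genes detected, and the count was 3 with size factors or thinned counts. The median difference of the 5 members was 2.77 on the log2(CPM + 1) scale, and that of all genes was 0. This median is largely fixed by the choice of CPC11 by Acta2 and by the entry of Tagln through CPC11. Over the 3 other members (Tpm2, Tpm1 and Cald1) the middle value was that of Tpm1, 1.07. Tpm2 ranked 115 and Tagln 40 by this difference, and Tpm1 and Cald1 ranked 1307 and 2547. Among the 5 cells with few genes detected, an alternative chosen after the data were seen, CPC11 was highest for 5 members, the same 4 and Myl9, against 18.3% of all genes. Myl9 passed the filter there only through CPC11 (mean 1.45 CPM, and 0.591 CPM without it), so like Tagln it had to be counted.

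**Figure D4:**
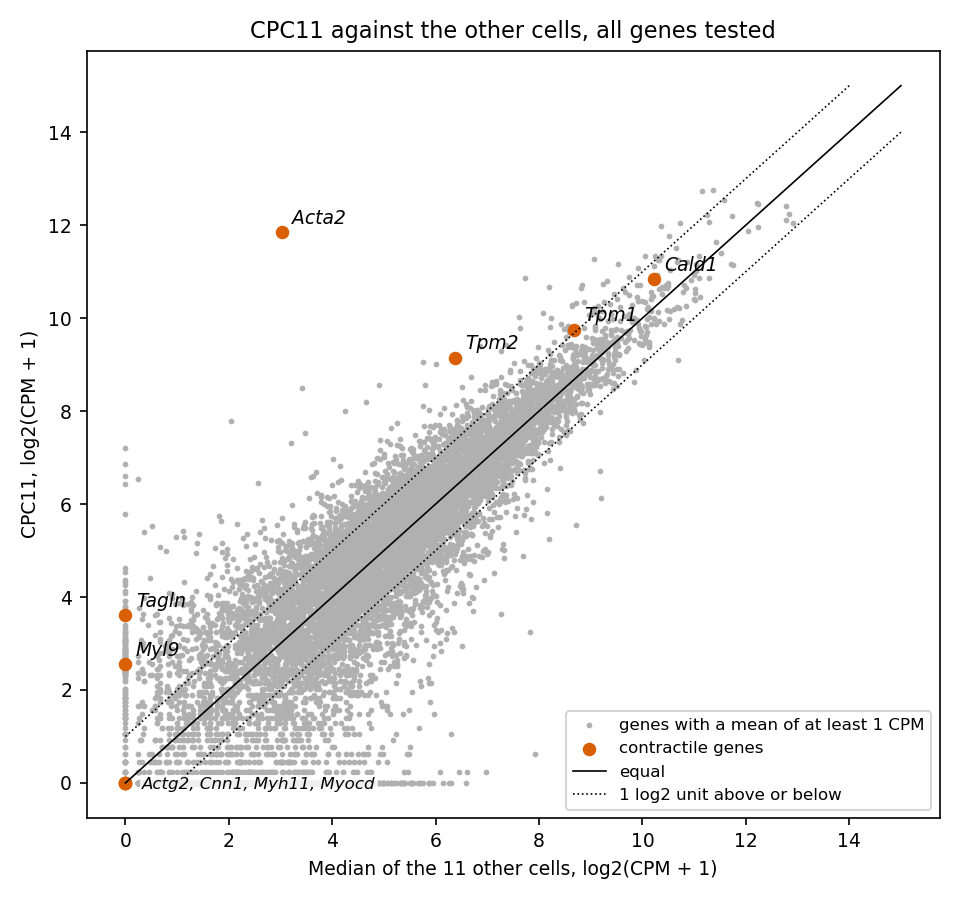
Each grey point is 1 of the 11542 genes tested, with the median of the 11 other cells on the x axis and CPC11 on the y axis, both as log2(CPM + 1); orange points are the 10 contractile genes, including those under the filter, and dotted lines mark 1 log2 unit. Acta2 lies 8.81 above the line of equality, Tpm2 2.77 and Cald1 0.62.

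The summed level of the 10 members was 6934 CPM in CPC11 and 743 (CPC9) to 2609 CPM (CPC7) in the other cells, with a median of 1577. This ratio of 4.40 rested mostly on Acta2. Without it the sum was 3266 CPM in CPC11 against a median of 1547 and a highest value of 2518 CPM, a ratio of 2.11. Cald1 and Tpm1 gave most of the sum in the cells other than CPC11.

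Across the cells the members were only partly ordered alike. For the 4 members counted in at least 6 cells, the 6 pairs had Spearman correlations over the 12 cells of 0.641 for Acta2 and Cald1, 0.595 for Acta2 and Tpm2, 0.585 for Acta2 and Tpm1, 0.580 for Tpm2 and Cald1, 0.294 for Tpm1 and Tpm2 and 0.112 for Tpm1 and Cald1. Without CPC11 they were lower, from 0.533 for Acta2 and Cald1 to -0.0636 for Tpm1 and Cald1. The points share their libraries and depths, and the values are descriptions. CPC4 and CPC8 held both Acta2 and Tpm2 at high levels, CPC10 held the highest Tpm1 with Tpm2 at 26.8 CPM, and CPC6 held Tpm2 at 159 CPM with no Acta2 count.

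Some genes followed Acta2 over the 12 cells more closely than the other contractile genes did. By Pearson's r of log2(CPM + 1) over 11420 genes counted in at least 3 cells, the nearest were Cfl1, the actin-severing protein cofilin (0.809), Dact1, an antagonist of Wnt signalling (0.804), March6, a ubiquitin ligase (0.769), Scd2, a fatty acid desaturase (0.767), F2r, the thrombin receptor (0.766), and Myh9, a non-muscle myosin heavy chain (0.761), followed by Ctxn1, Rnf214, Pwwp2b and Cdr2 (0.742 for the last). Tpm1 had 0.697 and ranked 39, Tpm2 0.680 and rank 45, Tagln 0.610 and rank 106, and Cald1 0.449 and rank 489. Cfl1 was at 2427 CPM in CPC11 and at 867 to 2169 CPM in the other cells. F2r was at 1626 CPM in CPC11 and at 109 to 927 CPM elsewhere. With 12 cells and this many genes such values are descriptions, and only 4 of the 10 nearest genes were kept when CPC11 was left out.

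The other genes of the contractile pathway were taken from lists of known function. Their counts are read against the shares of all genes: 7.46% were highest in CPC11, 14.0% were at least 2-fold above and 22.2% at least 2-fold below. These lists were not tested against other genes, and their 2-fold counts were not repeated among the cells with few genes detected. Of 17 relatives of the members, 12 passed the filter and 3 were highest in CPC11 (Cnn2, Myl6 and Myl12a, against 7.46% of all genes). Compared with the other cells' median, 4 were at least 2-fold above (Actg1, Cnn2, Cnn3 and Tpm4, 14.0% of all genes) and none was 2-fold below (22.2%). Of these 4, only Cnn2 was above every other cell. Actg1 and Tpm4 were higher in CPC8, and Cnn3 in CPC7, cells that also had few genes detected. The median difference of the relatives was 0.924 on the log2 scale. Of 20 genes that anchor actin filaments at adhesions, 16 passed, 3 were highest in CPC11 (Actn1, Lpp and Pdlim5, against 7.46% of all genes), 7 were at least 2-fold above (14.0%) and 1 was 2-fold below (22.2%), with a median of 0.918. Pdlim5, which links alpha-actinin to kinases, was at 535 CPM in CPC11 against 86.2 to 325 CPM in the other cells. Alpha-actinin 1, which cross-links actin, was at 418 CPM (114 to 311 in the others), and Lpp, a zyxin relative, at 547 CPM (103 to 532), within counting error of CPC8 (ratio 1.03, 0.978 to 1.08). The adhesion gene Vcl, at 110.1 CPM, was level with CPC12. Itga8, the integrin subunit of smooth muscle and mesangial cells, was under the filter, at 3.25 CPM in CPC11 and 0.398 CPM in CPC5 and at 0 in the other 10 cells. Desmin (Des), an intermediate filament protein of muscle, had no count in CPC11 and was counted in CPC6 alone, at 3.19 CPM.

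Of 17 genes that switch contraction on and off, 11 passed the filter, none was highest in CPC11 (7.46% of all genes), 1 was at least 2-fold above (14.0%) and 1 at least 2-fold below (22.2%), and the median difference was 0.00743, near the 0 of all genes. Mylk, the myosin light chain kinase, was at 31.2 CPM in CPC10 and had no count in CPC11. It was counted in 4 of the 12 cells. Of 4 markers of differentiated smooth muscle in this list, Smtn (smoothelin) was at 28.9 CPM in CPC11, near its median of 26.5 CPM in the other cells, and Lmod1, Synpo2 and Kcnmb1 had no count there. Lmod1 and Synpo2 were counted in 2 cells each and Kcnmb1 in none, so these zeros were shared by most cells. The gene at least 2-fold above was Ppp1r14a, an inhibitor of the light chain phosphatase, at 6.13 CPM against a median of 2.37. The kinases Rock1 and Rock2 and the GTPase Rhoa, which act on the light chain phosphatase in most cells, were at 125, 675 and 575 CPM in CPC11, all inside the range of the other cells.

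Of 19 regulators, 17 passed the filter, 1 was highest in CPC11 (Elk1, a partner of SRF that competes with myocardin, 12.5 CPM against at most 11.2, ratio 1.12, 0.750 to 1.68, within counting error), 2 were at least 2-fold above and 4 at least 2-fold below, with a median of 0.258. These counts lay near the shares of all genes, 7.46%, 14.0% and 22.2%. Srf was at 15.5 CPM in CPC11 and at 2.47 to 31.8 CPM in the other cells. Mkl1 ran from 0.791 to 39.2 CPM in the other cells and lay in CPC11 below their median of 18.8. Mkl2 stood at 3.79 CPM, against 0 to 93.3. Neither SRF nor its partners MRTF-A and MRTF-B were highest at the RNA level in the cell with the highest Acta2. The activity of these factors was not measured, and their part in the level of Acta2 was not tested. The orphan receptor gene Nr2f2 was at 1.80 CPM in CPC11 and at 8.70 to 34.0 CPM in the other cells. Tbx18, a factor of epicardial and mural cells, was at 2.71 CPM against 2.99 to 42.2, and Klf4, a repressor of smooth muscle genes, at 31.9 CPM against 32.4 to 138, both level with the next lowest cell.

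Of 11 signals that induce contractile genes, 8 passed the filter, none was highest in CPC11, 3 were at least 2-fold above and none 2-fold below (median 0.566), beside 7.46%, 14.0% and 22.2% of all genes. The TGF-beta receptor gene Tgfbr2 was at 127 CPM in CPC11, level with CPC12 at 128, and at 14.5 to 54.9 CPM in the other 10 cells. Its ligand Tgfb1 was at 41.1 CPM, within the range of 7.44 to 525 CPM of the other cells. Notch3, the Notch receptor of mural cells, had no count in CPC11 and was counted in 4 cells.

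Markers of cell types that express Acta2 were read beside these values. Of 12 mural cell markers, 4 passed the filter, none was highest in CPC11 and 2 were at least 2-fold above (14.0% of all genes). These were Pdgfrb, which was also counted among the inducing signals, and Mcam. Pdgfrb was higher in CPC7 and CPC12, at 81.0 and 87.5 CPM, and Mcam in CPC10, at 137 CPM. Only Pdgfrb, at 57.6 CPM, and Mcam, at 53.8 CPM, had a count in CPC11, and Rgs5, Rgs4, Cspg4, Abcc9, Kcnj8, Notch3, Anpep, Higd1b, Ndufa4l2 and Vtn were at 0. Of these, Rgs4, Kcnj8, Higd1b and Vtn were at 0 in every cell, and Rgs5 and Abcc9 in all but 1. The summed mural level was 111 CPM in CPC11 and 16.7 to 146 CPM in the other cells. Of 12 myofibroblast genes, 10 passed the filter, 1 was highest in CPC11 (Cthrc1, 15.9 CPM against 14.8 in CPC10, ratio 1.07, 0.781 to 1.47, within counting error), 4 were at least 2-fold above and 1 was 2-fold below, beside 7.46%, 14.0% and 22.2% of all genes, while Postn, Fap, Comp and Col12a1 had no count there. The genes at least 2-fold above included Col8a1 (374 CPM against a median of 123), Tnc (43.7 against 9.83) and Ltbp2 (62.8 against 13.3). Postn and Fap were counted in 2 cells each and Comp in 1. The sum of that list, 3710.4 CPM, was inside the range of the other cells, 686 to 8248. Of 10 fibroblast genes, 9 passed the filter, none was highest in CPC11, 2 were at least 2-fold above (Col1a2 and Col3a1, 14.0% of all genes) and 1 at least 2-fold below (Pdgfra, 8.48 CPM against a median of 80.8 in the other cells, 22.2% of all genes). The fibroblast list summed to 2753 CPM against 392 to 6604, of which Col1a2 gave 1789 CPM. Dcn, Lum and Tcf21 had no count in CPC11, and they were counted in 3, 1 and 2 of the 12 cells. The cardiomyocyte list had no count in CPC11, the skeletal muscle list 1.80 CPM (Tnnt3 alone), the endothelial list 3.97 CPM and the haematopoietic list 21.3 CPM. The part of any other cell type in the level of Acta2 was not tested.

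**Figure D5:**
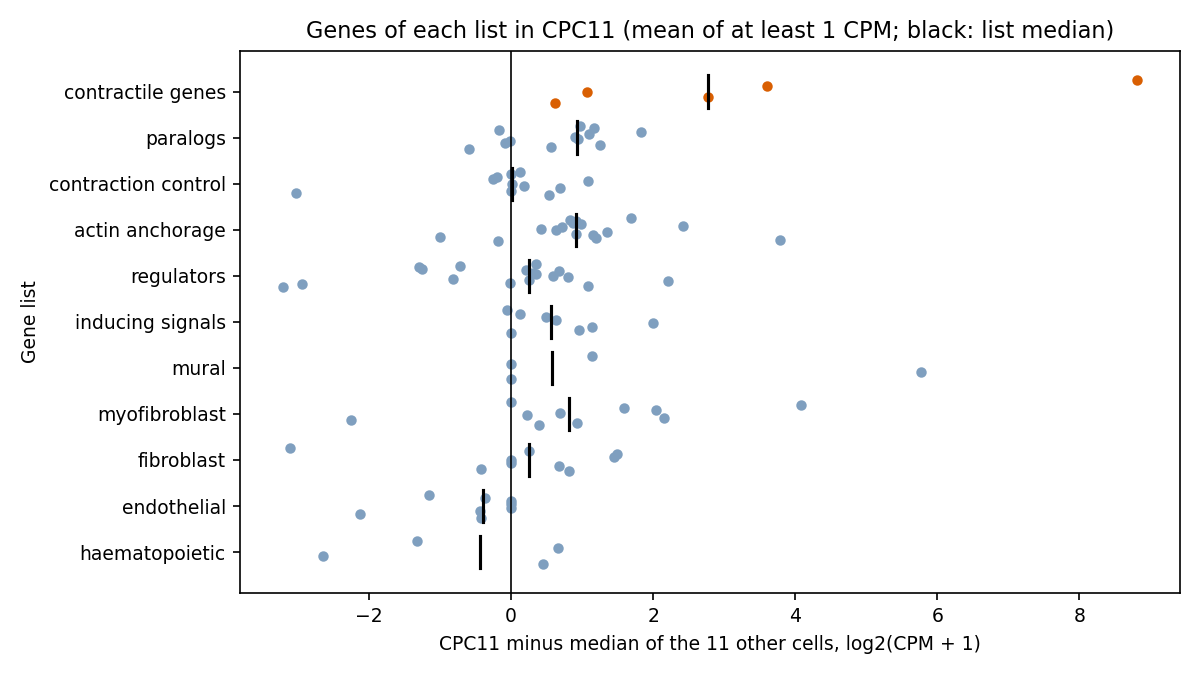
Each point is a gene that passed the filter, placed by CPC11 minus the median of the 11 other cells in log2(CPM + 1). Rows are gene lists, and the black bar is the median of the list. The cardiomyocyte list, with 1 passing gene (Tnnt2, -2.31), and the skeletal muscle list, with 0, are not drawn. The contractile genes have a median of 2.77, which includes Acta2, the gene that chose CPC11, and Tagln, which entered through it, and is 1.07 over the other 3. Relatives and actin anchorage genes have medians of 0.924 and 0.918, and genes of contraction control have a median near 0.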

How the data were processed

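Single cultured CPCs were sequenced with the Smart-Seq v4 kit and Nextera XT libraries. The deposited values were raw read counts per gene and cell, made by the authors from uniquely mapped reads on mouse mm10, with STAR (2.5.2b) per the submitters' processing notes. The counting program, annotation and strand rule are not given in the sources used here.

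From the counts, CPM and log2(CPM + 1) were computed. Genes were compared where their mean over the 12 cells reached 1 CPM. All columns were used. Positions and overlaps came from GENCODE vM21. Named genes were the members, the genes of 13 lists including the members, the 10 nearest to Acta2 and the 10 furthest above and below in CPC11. Members and lists were chosen with earlier results of these data known. Scaling, depth, filters, pseudocounts, likeness measures and left-out cells were varied. With 12 cells of 1 group, no test was made. Doublets were not called. The steps were tested on simulated data. Scripts ran in Python (3.11.15) with scipy (1.17.1), pandas (2.3.3), numpy (2.4.6) and, for plots, matplotlib (3.10.9).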

Additional observations from a re-analysis of the deposited data

How the results depend on the processing

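Of 64 recomputed values, 49 stayed within the limits used to judge them and none changed direction. The median difference of the members fell from 2.77 to 1.91 with median-of-ratios size factors and to 1.90 with counts thinned to the smallest total, because the mean of Tagln dropped below 1 CPM there (0.973 and 0.893) and left 4 members, and it was 1.69 with a pseudocount of 5 CPM. The share of all genes highest in CPC11 was 6.50% with size factors and 6.69% with no filter beyond 1 count. It ran from 7.98% to 8.72% when CPC3 or CPC10 was left out. In the 5 cells with under 11000 genes detected it was 18.3%, and 16 genes of the lists beside the members were highest there, against 8 in all cells. With fewer cells compared, such a share is larger by construction. Of the 10 genes nearest to Acta2, 2 were kept with a pseudocount of 5 CPM, 5 with 0.1 CPM, 5 with Spearman's rho, and 4 without CPC11. The summed ratio of 4.40 was 2.11 without Acta2 and 10.2 per kilobase. No paired analysis was possible because all cells form 1 group. Tagln, Cnn1, Myl9 and Myh11 had at most 62 counts in a cell, which limits the precision of their ratios. Thinning to the smallest total left the number of values above 0 at 57.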

Other observations

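A few other genes also set CPC11 apart, and 1 by a wider gap than Acta2. Of all genes tested 7.46% were highest in CPC11, inside the range of 5.56% to 12.8% over the cells. Such a list was not made for the other cells. The list is a description of a cell chosen by its Acta2 value, and the genes were ranked by the gap to the nearest of the other cells on the log2(CPM + 1) scale. The first was Trpc6, a calcium-permeable channel, with 817 counts (147 CPM) in CPC11 and at most 2.98 CPM elsewhere. Acta2 and Tagln followed. Pappa, a protease that cleaves binding proteins of insulin-like growth factors, was at 219 CPM against at most 27.6 CPM, and Serpinb6b, a protease inhibitor, at 159 CPM against at most 25.0 CPM. Fut4, Pcdhga9, Ptprq and Pcsk5 had 37, 30, 26 and 25 counts in CPC11 and none in any other cell, and Slc1a6, a glutamate transporter, had 42 counts in CPC11.

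In the other direction, Rad50, Casp12, Racgap1, Vps39, Prim1, Fbxo7, Slc7a5 and Gemin5 had no count in CPC11 and a count in each of the other 11 cells, with medians there of 45.7, 30.4, 57.4, 21.1, 49.7, 23.1, 34.3 and 19.0 CPM. Zkscan17 and Ckap2 had 1 count each in CPC11. Racgap1 and Ckap2 act in cell division and Prim1 in DNA replication.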
